A study of Mus musculus with 26 samples.

Results

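The genes described here encode the proteins of the cytosolic ribosome, the particle that translates nearly all messenger RNA of a cell. They were chosen by name alone, as the genes called Rpl or Rps with a number and at most 1 of the letters a, l, x or y, together with Rplp0, Rplp1 and Rplp2. Of 78 such names in the RNA polymerase II (Pol II) files, 74 could be measured, among 20933 measured genes in all. They comprised 45 genes of the large subunit, the stalk proteins included, and 29 of the small subunit. Rpl36, Rpl41, Rps13 and Rps27 were left out, because their rows were under 500 bp wide, ended before they started or shared a name. At the width limit, Rps21 was kept with 519 bp and Rpl36 was left out with 327 bp.

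Ribosomal protein genes are among the most heavily transcribed housekeeping genes, and their products assemble with ribosomal RNA in the nucleolus in matched amounts. Their messenger RNAs begin with a run of pyrimidines, the TOP motif, through which the kinase mTOR and the protein Larp1 control their translation. Growing hepatocytes need new ribosomes, and mouse livers that lack Rps6, which encodes a small subunit protein phosphorylated by S6 kinase, are known to fail to proliferate after partial hepatectomy. Many of the genes also have processed pseudogene copies of nearly the same sequence. The sources used here do not give how reads matching several copies were handled, so levels of single members are uncertain to that extent.

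The study used ChIP-seq, the sequencing of DNA pulled down with an antibody to a protein bound to it, in livers of male C57BL6/J mice aged 7 weeks. Surgery took away 3 of the 5 lobes, and this resected tissue was the 0 h sample. Regenerating livers were sampled at 3, 8, 16, 24, 36, 48 and 168 h. Antibodies against Pol II and against C/EBPalpha and C/EBPbeta, transcription factors of hepatocytes, were used at all 8 times, and one against Egr1, a zinc finger protein, only at 36 h. For an antibody and time there was 1 sample from 5 mice, with no word on pooling, so there was no replicate spread against which to set a difference. The mock sample of 0 h was not analysed here. No sham-operated group is among the labels, so surgery and time cannot be told apart from regeneration.

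Pol II level here means signal units per bp: the deposited signal of a gene body from 500 bp past the start to the end, divided by that width and rescaled between libraries. Depth is unknown, since these values are not read counts, and a value below 0 means a signal below the authors' background. From 51.7% (168 h) to 69.2% (3 h) of measured genes lay below 0, and the deposited sum was negative in the 3 h library only. Rescaling moved changes against 0 h by between -0.32 (16 h) and 0.97 (168 h) on the log2 scale. The 10 hepatocyte markers, such as albumin, summed to levels of 713 to 1326. Of the 6 measured lymphocyte markers 1 reached 0.5 in at least 2 libraries, the list summed to between 0 and 1.14, and 3 of them, Cd79a and Ms4a1 among them, were at or below 0 in all 8 libraries. The 6 macrophage markers summed to 2.14 to 5.95 with the highest sum at 168 h. The summed levels reached at most 0.736 for stellate cell, 1.91 for endothelial, 3.8 for cholangiocyte and 0.928 for erythroid markers. The part of the other cell types in the results was not tested, and less Pol II per cell cannot be told apart from fewer cells of a type.

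Sequences around the starts of the genes show 3 features the name rule did not use. The RefSeq promoter table (build GRCm38.p6) held 68 promoters of 56 of the 74 genes, each of 250 bases before and 50 from the start. The 18 genes it did not match included Rpl17, Rpl21, Rpl23a, Rpl29, Rpl3, Rpl32, Rpl7, Rpl8, Rplp1, Rps14, Rps20, Rps27a and Rps29. A pyrimidine run of at least 8 bases overlapping the stretch from 5 bases before to 10 after the start was present in 24 of the 68 promoters (35.3%), against 11.3% of all 32851 promoters of the same length and 11.7% of the 4081 promoters of tested genes. The 4 lines below give such runs in capitals in genes whose Pol II or C/EBP values are described further on, each shown from 60 bases before the start to 20 bases from it. Rps18 is at chr17:33955646-33955725, minus strand, Rpl13a at chr7:45128726-45128805, minus strand, Rplp2 at chr7:141447591-141447670, plus strand, and Rps9 at chr7:3703981-3704060, plus strand.
Rps18: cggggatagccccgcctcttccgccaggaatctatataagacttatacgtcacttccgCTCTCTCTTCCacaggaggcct
Rpl13a: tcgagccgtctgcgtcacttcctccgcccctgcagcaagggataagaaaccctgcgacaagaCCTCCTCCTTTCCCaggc
Rplp2: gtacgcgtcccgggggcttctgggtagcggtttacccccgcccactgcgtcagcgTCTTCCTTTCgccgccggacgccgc
Rps9: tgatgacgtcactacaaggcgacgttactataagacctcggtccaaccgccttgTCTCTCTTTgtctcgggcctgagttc
In Rps18, Rplp2 and Rps9 the capitals span the RefSeq start, while in Rpl13a they begin just after it.

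A CGCG palindrome, the run of capitals in the lines below, had the largest ratio to all promoters among the 9 motifs searched. It was found in 7 of 68 promoters (10.3%), of 6 genes, against 0.466% of all promoters and 1.08% of those of tested genes. The genes are shown because 4 of them, Rpl10a, Rpl12, Rps19 and Rps28, recur in the Pol II results: Rpl10a at chr17:28328505-28328584, plus strand, Rpl12 at chr2:32961652-32961731, plus strand, Rpl26 at chr11:68901506-68901585, plus strand, Rps6 at chr4:86857348-86857427, minus strand, Rps19 at chr7:24884532-24884611, plus strand, and Rps28 at chr17:33824543-33824622, minus strand.
Rpl10a: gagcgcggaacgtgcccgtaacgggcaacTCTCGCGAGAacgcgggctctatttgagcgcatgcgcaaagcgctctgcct
Rpl12: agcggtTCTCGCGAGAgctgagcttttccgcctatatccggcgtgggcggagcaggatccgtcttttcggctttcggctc
Rpl26: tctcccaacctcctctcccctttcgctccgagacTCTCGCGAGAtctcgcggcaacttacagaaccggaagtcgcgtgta
Rps6: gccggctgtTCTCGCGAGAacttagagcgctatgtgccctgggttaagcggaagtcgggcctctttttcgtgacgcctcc
Rps19: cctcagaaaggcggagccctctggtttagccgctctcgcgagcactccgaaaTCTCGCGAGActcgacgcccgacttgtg
Rps28: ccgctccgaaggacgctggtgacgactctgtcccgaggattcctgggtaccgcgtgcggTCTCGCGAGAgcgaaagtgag
Counted from the first base of the transcript as 0, the palindrome began at -54 in Rpl12, -51 in Rps6, -31 in Rpl10a, -26 in Rpl26, -8 in Rps19 and -1 in Rps28. In Rps19 and Rps28 it therefore spanned the start. A second Rps19 promoter holds the same palindrome from -92.

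The ETS core CCGGAAG was found in 25 of 68 promoters (36.8%), of 24 genes, against 8.86% of all promoters and 16.8% of those of tested genes. Members of the ETS family, such as Gabpa, are known to bind such cores at housekeeping promoters. Rps21 at chr2:180257279-180257398, plus strand and Rps18 at chr17:33955646-33955830, minus strand each held 2 cores, in capitals here, and Rps18 is shown again because its second core lies just upstream of the stretch printed above.
Rps21: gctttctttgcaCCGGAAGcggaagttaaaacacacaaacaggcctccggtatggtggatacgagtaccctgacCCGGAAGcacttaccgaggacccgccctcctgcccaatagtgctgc
Rps18: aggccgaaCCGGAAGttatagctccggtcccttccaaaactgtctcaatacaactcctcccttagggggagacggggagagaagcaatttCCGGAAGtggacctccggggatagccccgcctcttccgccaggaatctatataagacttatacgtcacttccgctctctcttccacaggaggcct
Rps21 had the smallest p in the trend test described further on, which called no ribosomal protein gene, and Rps18 was among the 6 highest. Rpl15, Rpl37 and Rpl39l also held 2 cores in a promoter, with mean Pol II levels of 0.423, 1.91 and -0.339. A link between cores and Pol II was not tested.

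The other 7 motifs were likewise searched on both strands, and a base could count for several motifs. The GC box GGGCGG was in 57.4% of the promoters (59.9% for tested genes), CCAAT in 30.9% (38.3%), TATAAA in 8.82% (8.6%), the E-box CACGTG in 11.8% (10.3%) and the EGR core GCGNGGGCG in 11.8% (10.1%). The YY1 core AAGATGGC was in 8.82%, against 4.29% for tested genes. The C/EBP core TTGCNNAA was in 4 promoters (5.88%), of Rpl10a, Rpl11, Rpl22 and Rpl23, against 9.26% for tested genes. Median GC content was 58.2%, and 60% for promoters of tested genes. A match is a description of letters and not a site of binding.

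Pol II over the ribosomal protein genes was lowest at 0 h and higher in each later library by its median, though without rescaling the median change at 168 h turned to -0.10. The median level of the 74 genes was 0.942, 1.1, 1.93, 1.37, 1.88, 1.77, 1.46 and 1.66 from 0 to 168 h. At 0 h, 16 of the 74 lay below 0, and at 3 h 10 did, against 1 to 3 in each library from 8 to 168 h. The 71 genes above 0.5 in at least 2 libraries, called tested, can be set beside all 4761 genes that passed the same filter. The comparison is not matched for width. Median width was 2299 bp for the 74 ribosomal protein genes and 8040 bp for all tested genes. Below 0 were 19.7% of the 71 at 0 h and 11.3% at 3 h, against 12.7% and 18.8% of all tested genes. From 8 to 48 h it was 0% of the 71 and 3.00 to 7.86% of tested genes, so values below 0 were rarer there in both. At 168 h it was 1.41% and 15.6%. A gene low at 0 h passed this filter only through later libraries, so counts against 0 h are read beside those of the 4761 genes and not on their own. The median of the 71 went from 1.04 at 0 h to 1.13, 2.10, 1.55, 1.91, 1.82, 1.48 and 1.69, while that of all tested genes stayed between 0.793 and 1.01.

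**Figure D1:**
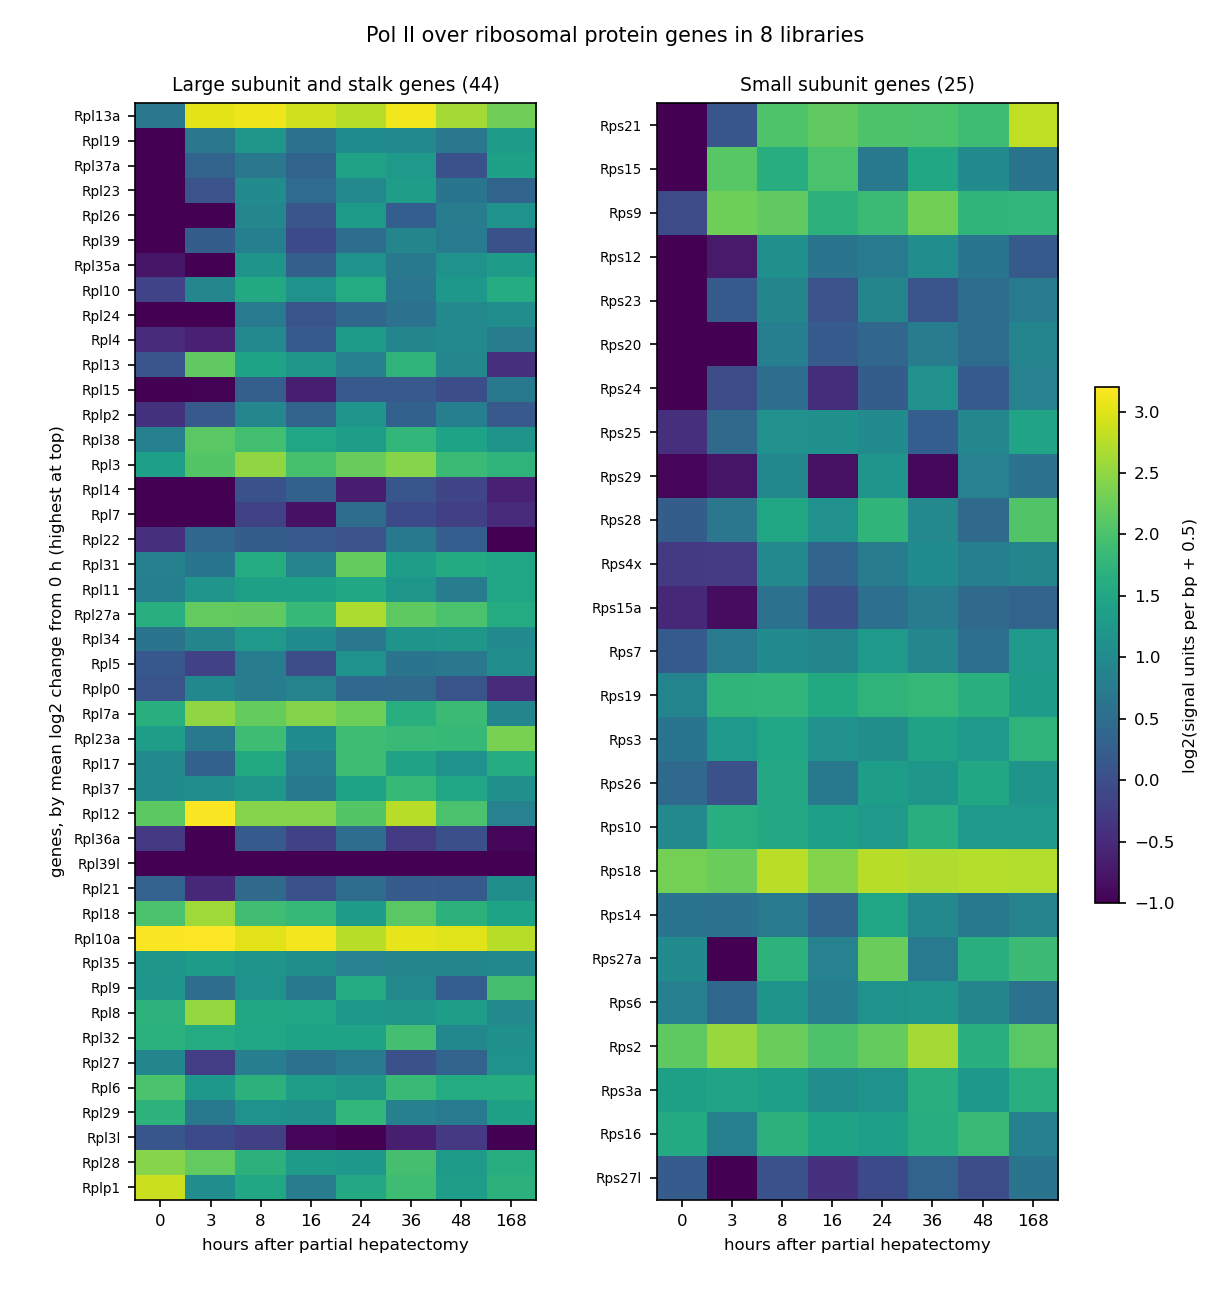
Pol II level, as log2(signal units per bp + 0.5) in colour, of 44 large subunit and stalk genes (left) and 25 small subunit genes (right) in the 8 libraries, which run along the x axis in hours. Genes are ordered by mean log2 change from 0 h, and values below 0 are drawn as 0. The darkest cells crowd at 0 and 3 h, where 14 and 8 of the 71 tested ribosomal protein genes lay below 0 (19.7% and 11.3%). Of all 4761 tested genes, 12.7% and 18.8% lay below 0 at these times.

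Ranks within a library, which do not depend on rescaling, gave the same picture. The median percentile of the 71 genes among 20933 measured genes was 88.8, 90.4, 94.2, 91.9, 93.5, 92.8, 92.1 and 93.1 in the order of times. The median of all tested genes stayed between 87.8 and 88.6. Ribosomal protein genes thus sat close to the tested genes at 0 h and above them in each later library.

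**Figure D2:**
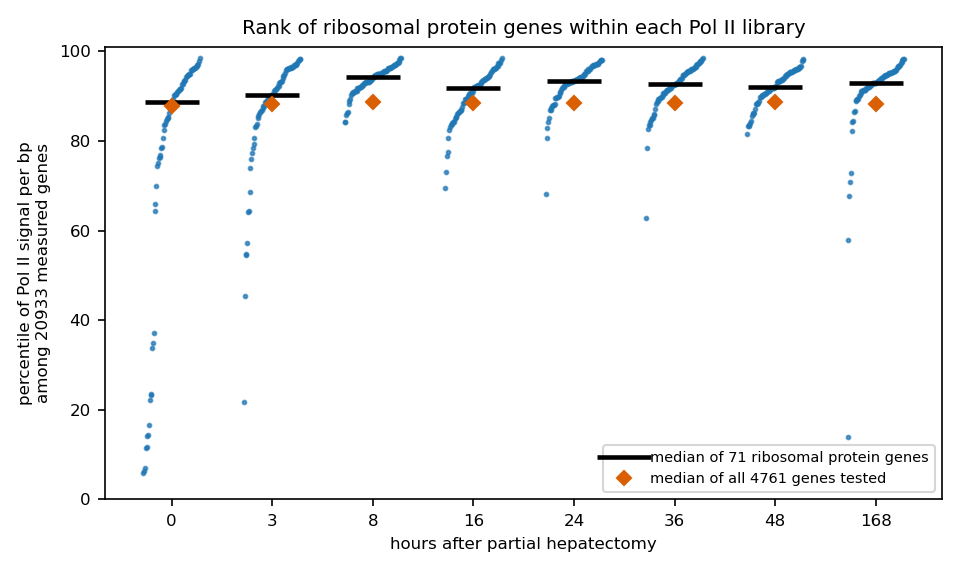
Percentile of Pol II signal per bp among 20933 measured genes (y axis) for each of 71 ribosomal protein genes (points, sorted within each library) in the 8 libraries (x axis, hours). Black lines are their medians, from 88.8 at 0 h to 94.2 at 8 h, and orange diamonds are medians of all 4761 tested genes, 87.8 to 88.6.

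A change was called at 1 or more on the scale log2(level + 0.5), a scale that understates changes of low genes; with 1 library a time there is no test against 0 h. At 8 h, 30 of 71 ribosomal protein genes were higher than at 0 h by that size (14.5% of tested genes) and 1 was lower (12.8%). At 24 h, 29 were higher (18.4%) and 2 lower (14.4%). At 36 h and 48 h, 24 were higher each time (16.5% and 15.2%), with 0 lower at 36 h (11.1%) and 2 at 48 h (13.5%). At 16 h, 18 were higher (15.1%) and 2 lower (10.6%). At 3 h, 15 were higher (18.1%) and 5 lower (21.4%), so the share of higher genes was near that of tested genes at this time. At 168 h, 25 were higher (17.7%) and 3 lower (19.3%).

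**Figure D3:**
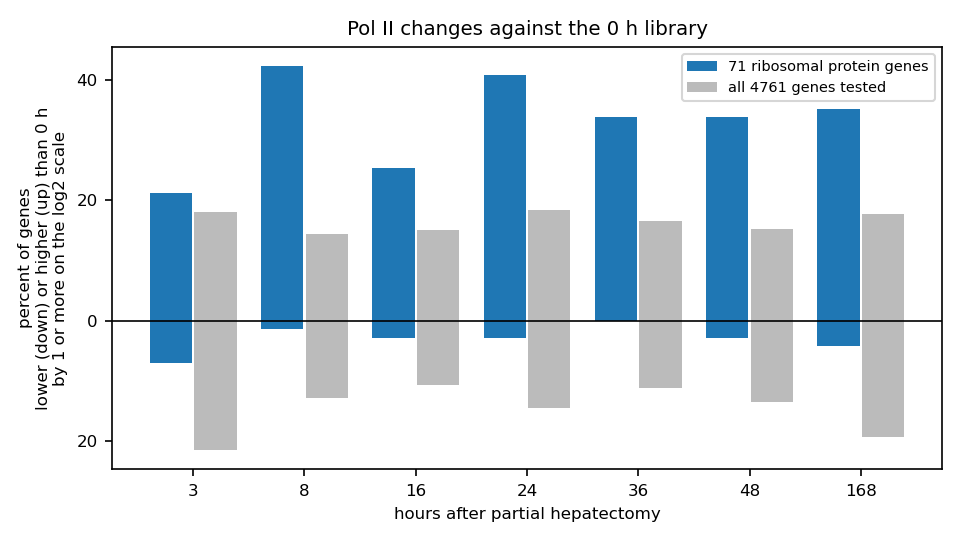
Percent of genes (y axis) higher (upward bars) or lower (downward bars) than the 0 h library by 1 or more on the log2(level + 0.5) scale at each later time (x axis, hours), for 71 ribosomal protein genes (blue) and all 4761 tested genes (grey). Upward blue bars are tallest at 8 h (30 genes) and 24 h (29), and no blue bar points down at 36 h. Without rescaling the 168 h counts are 17 higher (6.15% of tested genes) and 15 lower (35.2%).

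The median log2 change of the 71 genes against 0 h was 0.30, 0.68, 0.40, 0.82, 0.61, 0.49 and 0.56 from 3 to 168 h, against -0.08, 0.06, 0.09, 0.07, 0.12, 0.05 and 0.00 for all tested genes. All 7 comparisons share the one 0 h library. The 29 small subunit genes had medians of 0.34, 0.87, 0.50, 1.05, 0.74, 0.63 and 0.86. The 42 tested large subunit and stalk genes had 0.08, 0.59, 0.32, 0.57, 0.51, 0.45 and 0.37. These changes were below those of the small subunit at each time, a difference that was not tested. Median levels from 0 to 168 h were 0.681, 1.08, 2.30, 1.66, 1.91, 1.77, 1.54 and 1.76 for the small subunit genes. They were 1.28, 1.26, 1.86, 1.33, 1.95, 1.83, 1.48 and 1.68 for the large subunit and stalk genes. The gap at 0 h, with the small subunit genes lower, enters all 7 changes. At 8 h 16 of the 42 large and 14 of the 29 small subunit genes were higher by 1 or more (14.5% of tested genes). At 24 h 14 and 15 were (18.4%), and at 168 h 11 and 14 (17.7%). In 26 of 71 genes (36.6%) the level was above 0 h in all 7 later libraries, against 16.3% of tested genes. In 4 (5.63%) it was above 0 h in none, against 19.4%.

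The size of these counts depends on the scale and on the library used as reference. Without rescaling, 17 genes were higher (6.15% of tested genes) and 15 lower (35.2%) at 168 h in place of 25 and 3, and the median change of all genes there was -0.57. Medians of the ribosomal protein genes at 3 to 48 h stayed above 0. With the background level set per library, 15 were higher (15.1%) and 2 lower (13.7%) at 3 h. With 168 h as the reference, an alternative chosen after the data were seen, 25 genes were lower at 0 h by 1 or more (17.7% of tested genes), 22 at 3 h (29.6%), 0 at 8 h (3.3%) and 0 at 24 h (5.78%). Adding 2 in place of 0.5 left 4, 4, 3, 4, 5, 2 and 5 genes called higher from 3 to 168 h, against 8.02, 3.23, 3.91, 3.07, 4.14, 3.38 and 2.58% of tested genes. On that scale the share of the 71 genes was below that of tested genes at 3 and 48 h and near it at 16 h.

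Ordering the 8 libraries within each gene gave the lowest value at 0 h in 29 of 71 genes, where 19.6% of tested genes had it. It was at 3 h in 18 genes (33.8%), at 168 h in 10 (25.1%), at 16 h in 5 (4.26%), at 48 h in 5 (4.87%), at 24 h in 4 (7.39%) and at 8 or 36 h in 0 (0.651% and 4.39%). The highest value was at 36 h in 16 genes (9.64%), at 24 h in 15 (13.3%), at 168 h in 15 (20.8%), at 3 h in 12 (20.7%), at 8 h in 7 (1.09%), at 0 h in 4 (19.4%), and at 16 and 48 h in 1 each (10.5% and 4.64%). No single later time thus held the maximum of most genes.

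Of the 71 genes, 14 had a signal below 0 at 0 h, among them Rpl14, Rpl15, Rpl19, Rpl23, Rpl24, Rpl26, Rpl37a, Rpl39, Rps12, Rps15, Rps20, Rps23 and Rps24. Among tested genes 12.7% were below 0 at 0 h. These 14 had to be higher in later libraries to pass the filter, so nothing is read from their later levels. The other 57 had medians of 1.36, 1.46, 2.35, 1.66, 2.10, 2.05, 1.90 and 1.90. Their lowest median was at 0 h. Only 45 of the 71 genes were above 0.5 at 0 h, so some of the 57 also passed the filter through later libraries alone. Nothing is therefore read from this low median either.

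The smooth-trend test, limma on a natural spline over the order of times with Benjamini-Hochberg adjustment across 4761 genes, called 0 of 71 genes at an adjusted p under 0.05 (0.021% of tested genes). At an unadjusted p under 0.05 it had 12 of the 71 (16.9%), against 9.62% of tested genes. The smallest adjusted p in limma was 0.373 for Rps21, and it was 0.473 for Rpl24. Their unadjusted values were 0.000235 and 0.0179. Over 17 alternatives the test called 0 of these genes each time, and the smallest adjusted p of a member ranged from 0.137 to 0.676. Without replicates, this test takes its spread from how libraries scatter about the fitted curve.

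Among large subunit genes, Rpl10a, which encodes a protein of the mobile L1 stalk beside the tRNA exit site, had the highest mean level. Its body (chr17:28466029-28467972, build mm9) gave levels of 8.52, 9.0, 7.55, 8.19, 6.24, 7.71, 7.48 and 6.22 from 0 to 168 h. It was high in every library and differed by less than 1 on the log2 scale from 0 h throughout. Rpl13a, whose protein also takes part in interferon-induced repression of translation, gave 1.11, 7.69, 8.02, 6.98, 6.18, 8.11, 5.73 and 4.41 over chr7:52381294-52383607. The 0 h library stood well below the other 7, and the log2 change was 2.35 at 3 h and 2.41 at 8 h.

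Rpl12 followed a different course. The gene, whose protein sits at the base of the stalk, gave 3.91, 8.56, 4.89, 4.92, 3.72, 6.24, 3.48 and 1.31 from 0 to 168 h. It was highest at 3 h and lowest at 168 h, with the 0 h level inside the range of the 8 to 48 h libraries. Rpl8 gave 2.8, 5.33, 2.35, 2.31, 1.85, 1.82, 2.03 and 1.46 and Rpl13 gave 0.583, 3.99, 2.2, 1.84, 1.29, 2.82, 1.43 and 0.247, again with the maximum at 3 h and the minimum at 168 h. In all, 10 of 71 genes were higher at 3 h than at 168 h by 1 or more (24.8% of tested genes).

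Rpl38, a gene known from the tail-short mouse, in which translation of Hox messenger RNAs is disturbed, gave 1.3, 3.85, 3.32, 2.26, 2.07, 2.92, 2.22 and 1.74. It was lowest at 0 h and highest at 3 h. Rpl3, which encodes a protein close to the peptidyl transferase centre, gave 2.1, 3.71, 5.17, 3.46, 4.18, 4.89, 3.15 and 2.82, with 0 h lowest and 8 h highest. Rpl24, whose protein forms a bridge between the subunits, was below 0 at 0 and 3 h and above 0.5 afterwards, at -0.165, -0.373, 1.15, 0.57, 0.814, 0.986, 1.48 and 1.59.

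A few large subunit genes were at or near their highest at 0 h. Rpl28 gave 4.92, 4.06, 2.75, 2.0, 1.85, 3.41, 1.95 and 2.58 from 0 to 168 h, Rpl6 gave 3.53, 1.87, 2.75, 2.04, 1.84, 3.05, 2.49 and 2.53, and Rpl29 gave 2.77, 1.12, 1.72, 1.66, 2.93, 1.3, 1.18 and 2.11. In Rpl28 and Rpl6 the 0 h value was the maximum of the 8, while Rpl29 was a little higher at 24 h. Their log2 changes at 3 h were -0.25, -0.77 and -1.01.

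The 3 stalk genes encode acidic proteins that recruit elongation factors to the ribosome, and they did not share a course. Rplp1 gave 6.74, 1.57, 2.35, 1.22, 2.41, 3.21, 2.02 and 2.73 over chr9:61761092-61761845, its 0 h value above all later ones, and its log2 change ran from -2.08 at 16 h to -0.97 at 36 h. Rplp0, the anchor of the stalk, gave 0.569, 1.46, 1.21, 1.34, 0.847, 0.869, 0.561 and 0.208, with its maximum at 3 h and its minimum at 168 h. Rplp2 gave 0.262, 0.623, 1.42, 0.767, 1.8, 0.739, 1.25 and 0.626, with 0 h lowest and 24 h highest.

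Small subunit genes included some of the largest differences from 0 h. Rps21, which encodes a protein found in eukaryotic ribosomes only, is a short gene whose measured body was chr2:179992623-179993141. Its level was 0.00488, 0.593, 3.64, 4.04, 3.6, 3.52, 3.23 and 6.48 from 0 to 168 h. The 0 h value was at the background, 3 h lay between, the 5 libraries from 8 to 48 h lay close together, and 168 h was highest. The log2 change was 1.11 at 3 h, 3.03 at 8 h and 3.79 at 168 h. With 519 bp, this body is the shortest of the 74. Of the 74 bodies, 6 were under 1 kb wide. Among them were also those of Rplp1 (754 bp), Rps29 (865 bp), Rps15 (942 bp) and Rps28 (943 bp). The part of this short width in their levels was not tested.

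Rps9 gave 0.482, 4.32, 4.03, 2.75, 3.12, 4.44, 2.88 and 2.95, and Rps15, whose protein is in the head of the subunit, gave -0.44, 3.82, 2.56, 3.48, 1.11, 2.33, 1.54 and 1.04. In both the 0 h library was lowest, and 3 h was already above the median of the gene's later libraries. Rps19, the gene mutated most often in Diamond-Blackfan anaemia, gave 1.36, 2.86, 2.9, 2.42, 2.83, 2.98, 2.67 and 1.97, lowest at 0 h and otherwise within a narrow range. Rps7 gave 0.645, 1.17, 1.53, 1.4, 1.91, 1.43, 0.942 and 1.9 and Rps28 gave 0.681, 1.08, 2.38, 1.68, 2.85, 1.48, 0.875 and 3.68, both lowest at 0 h, with 168 h highest for Rps28.

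Rps18 and Rps2 were the highest small subunit genes. Rps18, whose protein is in the head of the subunit, gave 4.52, 4.23, 6.27, 4.88, 6.23, 6.02, 6.12 and 6.08 over chr17:34088949-34092108, and Rps2, whose protein lines the entry of the messenger RNA channel, gave 3.97, 5.36, 4.21, 3.59, 4.11, 5.73, 2.67 and 3.88. Both were steady, with all log2 changes against 0 h under 1 in size.

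**Figure D4:**
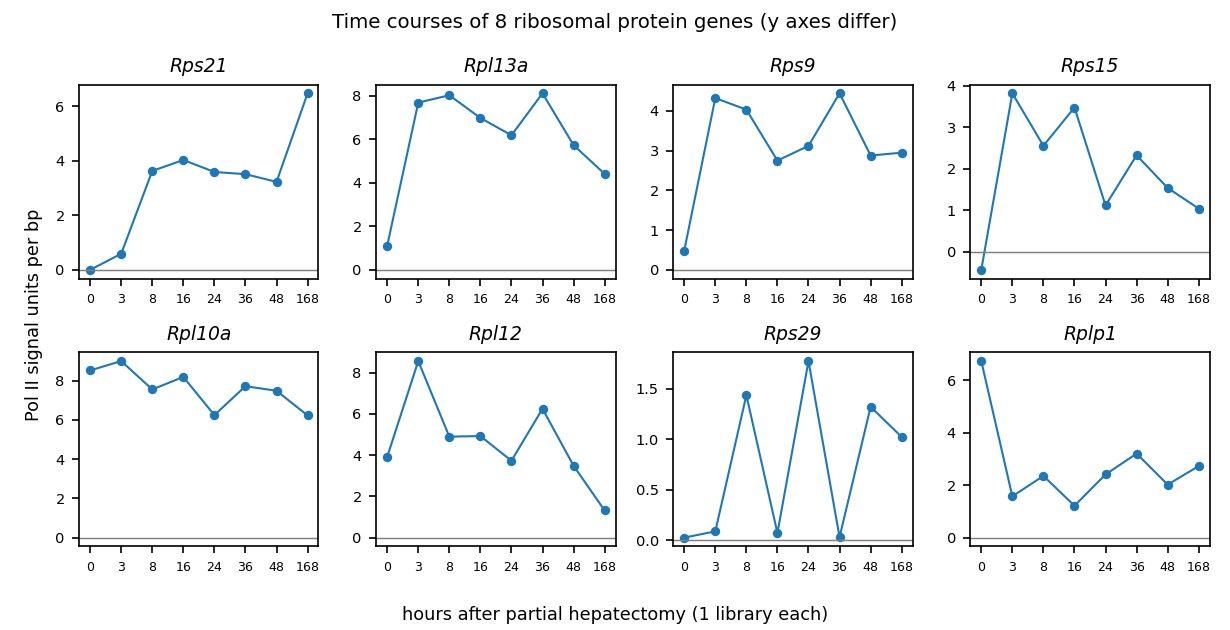
Pol II level in signal units per bp (y axes, which differ between panels) against hours after partial hepatectomy (x axes, evenly spaced times) for Rps21, Rpl13a, Rps9, Rps15, Rpl10a, Rpl12, Rps29 and Rplp1, with 1 library per point. Rps21, Rpl13a, Rps9 and Rps15 start lowest at 0 h, Rpl12 peaks at 3 h with 8.56, and Rplp1 starts highest with 6.74. The measured bodies of Rps21, Rps15, Rps29 and Rplp1 were under 1 kb wide.

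Rps29 and Rps27a, like several other ribosomal protein genes, alternated between libraries. Rps29 gave 0.0273, 0.0886, 1.44, 0.0727, 1.77, 0.0319, 1.32 and 1.02 from 0 to 168 h, near 0 at 0, 3, 16 and 36 h and above 1 at 8, 24, 48 and 168 h. Rps27a, which encodes a small subunit protein made as a fusion with ubiquitin, gave 1.53, -0.239, 2.77, 1.31, 4.25, 1.14, 2.63 and 3.16, with its 4 highest values in the same 4 libraries. Rpl5, Rpl10, Rpl26, Rpl31, Rpl35a and Rps23 also had their 4 highest values there, so the split is not particular to Rps29 and Rps27a. The share of all tested genes with this split was not counted. Nothing particular to ribosomal protein genes is therefore read from it. Rpl35a gave 0.0926, -0.169, 1.75, 0.713, 1.7, 1.12, 1.73 and 1.99. Rescaling also raised changes against 0 h most in these libraries, by 0.33, 0.41, 0.33 and 0.97 on the log2 scale. Its part in the split was not tested. The labels name no batches, so a batch cannot be told apart from a time.

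Rpl39l and Rpl3l, paralogs known from other tissues, had little signal. Rpl39l, known from testis, was below 0 in all 8 libraries (-0.451, -0.524, -0.254, -0.307, -0.388, -0.369, -0.208 and -0.215), while Rpl39 gave -0.444, 0.686, 1.26, 0.463, 0.924, 1.37, 1.15 and 0.529. Rpl3l, known from heart and skeletal muscle, gave 0.591, 0.461, 0.365, 0.0273, -0.212, 0.138, 0.312 and -0.0233, highest at 0 h, and Rpl3 was above it in each library. Rps27l, a target of p53, was among the tested genes. It gave 0.665, -0.0708, 0.539, 0.256, 0.459, 0.756, 0.501 and 1.04, and Rps27 itself was not measured.

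Rpl39l, Rpl3l and Rpl7 were the 3 genes not tested. Rpl7 gave -0.271, -0.419, 0.382, 0.0747, 0.903, 0.458, 0.366 and 0.21 and reached 0.5 at 24 h only. Rpl14 had the lowest mean level of the 71 tested genes, at -0.634, -0.169, 0.542, 0.735, 0.132, 0.587, 0.423 and 0.154, below 0 at 0 and 3 h. Rows of Rpl35 and Rps25 overlap the genes Wdr38 and Ccdc84, and ChIP carries no strand, so their signals cannot be told apart.

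Genes that work with the ribosome were taken from lists of their own. Their counts are to be read beside all tested genes, of which 14.5 to 18.4% were higher and 10.6 to 21.4% lower, depending on the time. Of ribosomal proteins outside the name rule, 5 were tested, with median changes of 0.48, 0.60, 0.34, 0.86, 0.44, 0.54 and 0.56 from 3 to 168 h and 1 to 2 genes higher by 1 or more each time. Gnb2l1, the scaffold protein also called Rack1, gave levels of 1.15, 1.81, 2.87, 1.94, 2.51, 2.56, 2.51 and 3.76, and Rpsa, also known as the laminin receptor, gave 1.8, 3.42, 2.91, 2.42, 2.56, 2.62, 1.1 and 1.5. Gnb2l1 was lowest at 0 h and Rpsa at 48 h.

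For 24 tested translation factors the medians were 0.07, 0.29, 0.09, 0.03, 0.23, 0.24 and 0.01. Each time 2 to 6 were higher (14.5 to 18.4% of tested genes) and 1 to 5 lower (10.6 to 21.4%). Eef1a1, which delivers aminoacyl-tRNA, gave 26.4, 30.4, 17.6, 18.9, 16.3, 18.2, 16.8 and 12.5, above every ribosomal protein gene in each library. Eef2, the translocation factor, gave 3.29, 19.7, 8.52, 8.82, 7.89, 9.46, 7.46 and 0.832, highest at 3 h and lowest at 168 h, like Rpl12. Eif4a2, an RNA helicase of initiation, gave 1.65, 3.77, 4.52, 3.41, 5.28, 4.93, 4.9 and 3.9, lowest at 0 h.

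Ribosome assembly genes had lower signals, and 13 of 40 measured were tested. Their median changes were 0.02, -0.16, 0.06, 0.27, 0.40, -0.19 and -0.29. Each time 1 to 4 genes were higher (14.5 to 18.4% of tested genes) and 1 to 4 lower (10.6 to 21.4%). Nop56, a core protein of the box C/D snoRNA particles, gave 1.19, 1.21, 0.783, 0.975, 2.76, 3.67, 0.825 and 0.877, with 24 and 36 h above the other 6. Tsr1, a factor of small subunit maturation, gave 0.565, 0.324, 1.72, 1.49, 2.89, 1.69, 1.67 and 2.19, and Ftsj3 gave 2.28, 0.803, 1.42, 1.51, 1.32, 1.14, 1.61 and 1.42. Of 14 measured genes of RNA polymerase I and its factors 3 were tested, with 0 called in either direction at any time. Ubtf, which binds ribosomal DNA, gave 5.37, 7.54, 6.35, 7.57, 2.96, 3.96, 5.03 and 2.53, and Polr1c gave 2.05, 3.05, 3.63, 3.61, 3.24, 4.02, 3.38 and 2.07.

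Among 14 measured regulators, 8 were tested. From 3 to 168 h, 3, 0, 0, 0, 3, 1 and 1 were higher (14.5 to 18.4% of tested genes). Lower were 1, 0, 1, 1, 0, 0 and 2 (10.6 to 21.4%). Myc, a transcription factor that drives ribosome production, gave 1.5, 6.92, 2.05, 2.72, 1.33, 3.93, 2.56 and -0.442, and Mnt, which shares its partner Max, gave 1.62, 8.44, 1.5, 2.59, 0.683, 4.56, 0.882 and -0.0923. Both were highest at 3 h, next highest at 36 h and below 0 at 168 h. Mdm2, the p53 ligase that Rpl5 and Rpl11 bind, gave 0.554, 0.917, 1.51, 1.36, 1.37, 2.03, 1.84 and 2.21, lowest at 0 h. The snoRNA host gene Snhg8, the 1 measured and tested, gave 1.16, 0.453, 0.637, 0.657, 1.47, 1.15, 0.537 and 1.09.

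Mitochondrial ribosomal proteins form another ribosome and serve as a comparison. Of 72 measured genes 25 were tested, with median changes of -0.29, 0.26, 0.00, 0.36, 0.20, 0.14 and 0.43 from 3 to 168 h. Their counts were 3 to 6 higher (14.5 to 18.4% of tested genes) and 1 to 4 lower (10.6 to 21.4%) at each time. This was more even than for the cytosolic set, though the difference between the lists was not tested. Mrps34 gave 11.7, 5.23, 4.23, 6.18, 6.58, 8.15, 5.47 and 2.33, Mrpl12 gave 7.62, 1.64, 3.7, 3.68, 4.53, 4.9, 3.85 and 7.31, and Mrpl17 gave 4.43, 2.0, 1.34, 0.829, 3.13, 1.13, 0.793 and 1.15, each highest at 0 h. The trend test in limma called 0 genes of any of these lists after adjustment. At an unadjusted p under 0.05 it had 4 of 25 mitochondrial genes, beside 12 of the 71 cytosolic ones and 9.62% of tested genes. It had 1 of 5 ribosomal proteins outside the rule, 1 of 24 translation factors, 1 of 13 assembly genes and 0 of the other lists.

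C/EBP regions lay near some ribosomal protein genes, and their share was below that of tested genes in each of the 16 lists. A gene counted where a region's centre lay within 1 kb of the start. For C/EBPalpha, 15, 20, 16, 13, 11, 21, 17 and 21 of 71 genes had a region from 0 to 168 h, against 28.1, 35.6, 27.0, 31.7, 23.9, 32.7, 28.4 and 34.0% of tested genes. For C/EBPbeta, 23, 32, 21, 15, 14, 29, 15 and 18 had one, against 35.4, 51.2, 36.7, 31.2, 29.2, 46.3, 27.3 and 31.3%. The mean share over the 16 lists was 26.5% for the ribosomal protein genes and 33.1% for tested genes. Some gaps were small, such as 32.4% against 35.4% for C/EBPbeta at 0 h. Many of the same genes had a region in several lists, so the 16 lists are not independent. The difference was not tested. With centres within 500 bp the share was lower in 15 of 16 lists. C/EBPbeta had its highest counts at 3 and 36 h, as among tested genes.

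Across the 16 lists, 22 of 71 genes had no region (34.4% of tested genes), 31 had one in 1 to 7 lists (33.6%), and 18 in at least 8 (32.0%). Most of the 31 were in 1 to 3 lists, 27 in all, where 22.2% of tested genes fell. In all 16 lists, 5 genes had a region (12.3%): Rpl10a, Rps18, Rpl3, Rps27a and Rps24. Next were Rpl18, Rps19 and Rplp2 with 15 lists and Rps23 with 14.

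**Figure D5:**
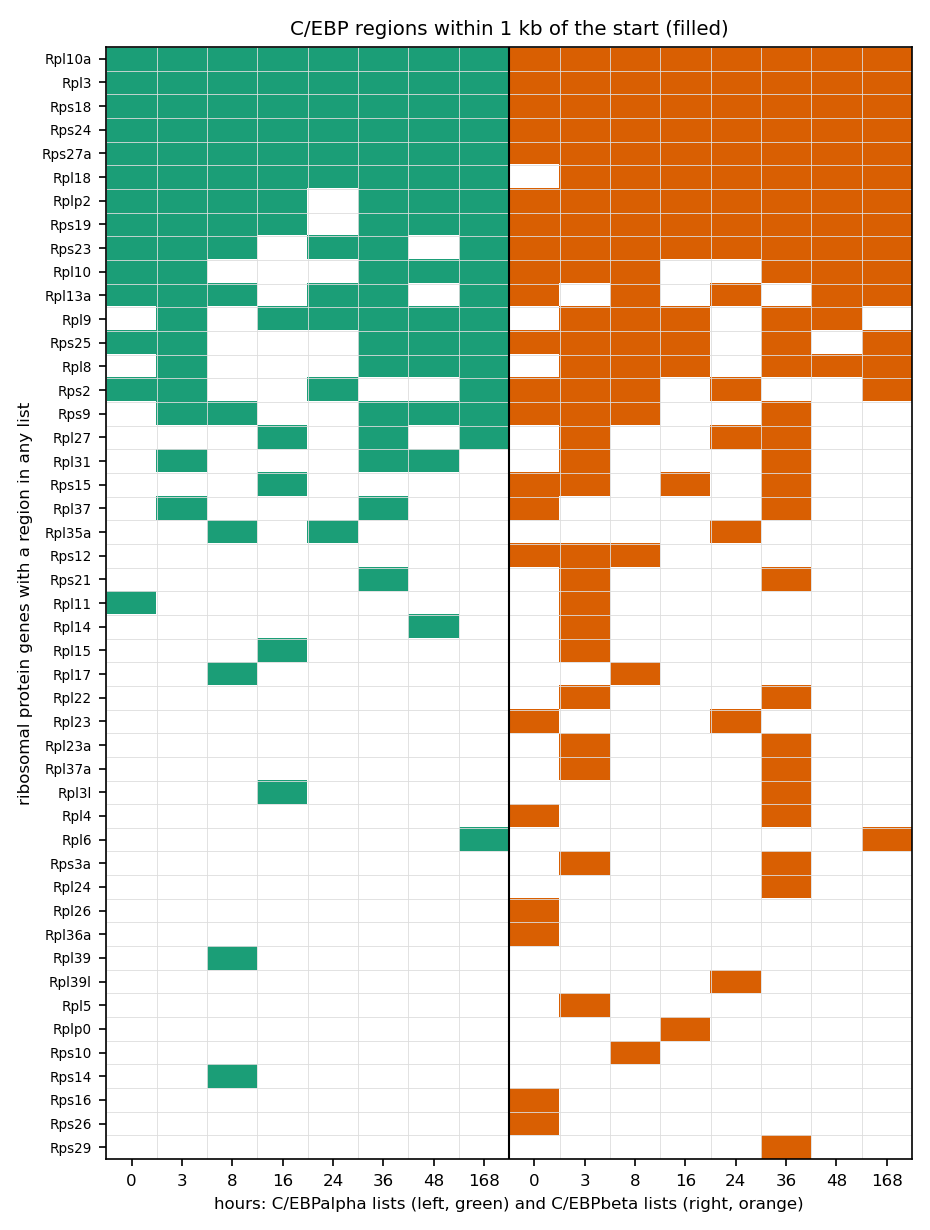
Filled cells mark a C/EBP region with its centre within 1 kb of the start of a ribosomal protein gene (y axis) in the C/EBPalpha lists (green) and C/EBPbeta lists (orange) at 8 times (x axis, hours). The 47 genes drawn have a region in at least 1 list, and 5 genes are filled in all 16 lists. Below them, filled cells of any gene are most common for C/EBPbeta at 3 and 36 h.

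At Rpl10a the region centres lay from -399 to -301 bp, upstream of the start, with a median of -338.5 bp over the 16 lists. By the authors' score its rank ran from the top 0.749% to the top 18.5% of a list. In mm9 its best-ranked region was chr17:28465181-28465206, in the C/EBPbeta list of 36 h. The RefSeq promoter of the upstream of 2 Rpl10a starts holds the sequence TTGCACAA, in capitals below (chr17:28328221-28328490, plus strand, GRCm38.p6).
Rpl10a: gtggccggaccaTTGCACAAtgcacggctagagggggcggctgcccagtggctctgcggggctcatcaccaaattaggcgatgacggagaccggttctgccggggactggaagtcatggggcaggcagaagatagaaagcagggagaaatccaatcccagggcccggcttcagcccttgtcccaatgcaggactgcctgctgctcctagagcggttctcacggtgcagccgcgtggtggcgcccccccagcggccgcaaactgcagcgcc
This match begins at -238 from the upstream RefSeq start and at -332 from the downstream one, 94 bases further on. The start in the Pol II files belongs to another build and was not matched to either.

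Positions at the other recurrent genes varied. Median distances of the region centre from the start were -129 bp at Rpl3, -155 at Rps24, -53 at Rpl18, -438 at Rps23, -581 at Rps19 and -654 at Rplp2, all upstream. At Rps18, whose start lies 219 bp from that of Vps52, the median was 371.5 bp downstream. At Rps27a it was -387 bp, with another start 90 bp away. Another measured start lay within 1 kb for 4 of the 18 recurrent genes and for 9 of all 71, and for those a region cannot be given to 1 of the 2 genes.

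Pol II levels of genes with recurrent regions were the higher ones by their median, a difference that was not tested. The median of the mean level was 2.81 for the 18 genes in at least 8 lists, 1.16 for the 31 in 1 to 7 and 1.69 for the 22 in none. Among tested genes the medians were 1.17, 0.979 and 0.737 in the same order. Levels of the recurrent genes reached from Rps24, at -0.597, 0.468, 0.935, 0.231, 0.679, 1.68, 0.67 and 1.32, to Rpl10a, so they overlapped with those of the others. Median log2 changes of these 18 against 0 h were 0.76, 0.78, 0.32, 0.84, 0.58, 0.56 and 0.49 from 3 to 168 h. The 31 genes in 1 to 7 lists had 0.00, 0.68, 0.35, 0.88, 0.67, 0.68 and 0.65. The 22 with no region had 0.19, 0.59, 0.47, 0.48, 0.59, 0.28 and 0.36. No group was above the other 2 at every time.

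Egr1 at 36 h overlapped the 1 kb window of 2 of 71 genes, where 5.46% of tested genes had such a peak. At Rps27a the peak (chr11:29447729-29448854, mm9, score 74.0) had its centre at -431 bp from the start. At Rps10 the peak (chr17:27773174-27774716, score 112) was 1543 bp wide, and its centre lay at -1759 bp. Rps27a was thus the one gene with an Egr1 peak centre and C/EBP regions of all 16 lists within 1 kb.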

How the data were processed

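ChIP-seq was made from mouse liver at 8 times after partial hepatectomy, and sample titles gave antibody and time. Per the submitters' processing notes, Bowtie 0.12.7 and MACS 1.4.1 were used with the build mm9. Their roles are not stated there. The deposited Pol II files give a signed score per gene, which by its values is a background-subtracted sum over the gene from 500 bp downstream of the start. The deposited C/EBP lists give a score that ran from 1 to 1000 in each of the 16 lists, so it was used to rank or filter within a list, and the Egr1 list a peak score from the authors' caller. The sources used here do not give how scores were scaled, nor filters, pooling or batches. Of 26 samples, 25 had a file, and the mock sample was not analysed here.

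The Pol II score was divided by the measured width, and libraries were rescaled by the median ratio over 1472 genes above 0.5 in all 8, of which 39 were ribosomal protein genes. Rows under 500 bp wide or sharing a name were dropped. Negative values became 0, and log2 was taken after adding 0.5. Genes above 0.5 in at least 2 libraries were tested for a trend with limma 3.58.1 in R 4.3.3, using a natural spline of time rank (3 degrees of freedom). The threshold was an adjusted p of 0.05. The test was tried on simulated data first. Comparisons with 0 h have no test. Gene starts are rows moved back by 500 bp. Promoters were matched by symbol. Python 3.11.15, numpy 2.4.6 and pandas 2.3.3 were used. Alternatives changed the pseudocount, low-value filter, rescaling, background, width, libraries, trend curve, windows and score minimum. Depth is unknown and no counting error can be given.

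Members and lists were chosen with earlier results of these data known. Named genes are the 6 highest and 4 lowest by mean level, the 5 with the largest mean change in each direction among those above 0.5 in all 8 libraries, the 3 smallest trend p-values, up to 10 genes with C/EBP regions in at least 8 of 16 lists, paralogs ending in l, and 2 or 3 genes of each other list. Rpl5, Rpl8, Rpl10, Rpl13, Rpl26, Rpl31, Rpl35a, Rplp0, Rps9, Rps15, Rps23 and Rps29, and genes in counts of 5 or fewer, were named after their values were seen. Some genes that this rule takes are not reported here and not drawn in the figures that name genes; counts and medians include them.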

Additional observations from a re-analysis of the deposited data

How the results depend on the processing

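No paired analysis was possible because each antibody and time had 1 sample. Of 49 planned values each, 41 counts of higher genes and 29 of lower genes stayed within 1.5 times, and 46 medians within 0.3. Percentages in brackets are shares of tested genes at the same setting. With a pseudocount of 0.05, 29 genes were higher at 16 h (28.7%), and 10, 3, 4 and 8 were lower at 3, 36, 48 and 168 h (35.0, 17.0, 20.8 and 26.4%). With a pseudocount of 2, 4, 4, 3, 4, 5, 2 and 5 were higher from 3 to 168 h (8.02, 3.23, 3.91, 3.07, 4.14, 3.38 and 2.58%), and 1, 1, 0, 1 and 0 lower at 3, 16, 24, 48 and 168 h (6.6, 3.86, 4.68, 4.03 and 6.07%). Without rescaling, 2, 1, 4, 4 and 15 were lower at 8, 16, 24, 48 and 168 h (19.6, 8.4, 22.7, 20.3 and 35.2%), and the 168 h median was -0.10. Without it, the median of all tested genes moved to -0.25, -0.18, 0.31, -0.20, 0.11, -0.18 and -0.57. Setting the background per library left 2 lower at 3 h (13.7%). Bodies of at least 1500 bp, 58 genes, gave 3 lower at 3 h (20.8%) and 0 at 8, 16, 24 and 48 h (11.6, 9.2, 13.3 and 12.4%). Against 168 h, an alternative chosen after the data were seen, 7, 7, 9, 5 and 4 were higher at 8, 16, 24, 36 and 48 h (12, 21.7, 11.4, 20.3 and 14.7%). Against it, 22, 0, 12, 0 and 5 were lower at 3, 8, 16, 24 and 36 h (29.6, 3.3, 12.1, 5.78 and 9.09%), with medians of -0.29, -0.27 and -0.021 at 3, 16 and 48 h. Within 5 kb, 7 genes had a C/EBP region in no list (13.2%). With a score of at least 100, 63 had none (83.5%) and 2 had one in at least 8 lists (5.94%). Without the C/EBPbeta list of 0 h, which was left out after the data were seen, 18 genes had a region in at least 8 lists (31.1%) and 26 in none (37.1%). Egr1 counts were 1 by peak centre (3.78%), 1 with a score of at least 100 (3.26%), and 4 within 5 kb (11.7%). Beyond the settings' own construction the cause was not tested. With 1 library per time and unknown depth, no difference has an error.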
